A study of Mus musculus with 6 samples.

Results

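TJ and MKOC cells are a pair of mouse kidney epithelial cell lines that are both labelled Tsc2-null. They were compared for the genes whose RNA differed between them whether or not the cells had been given rapamycin. The comparison used 4 of the 6 libraries of the series, with 2 libraries a line, of which 1 came from untreated and 1 from rapamycin-treated cells. MKOC cells are labelled Tsc2-null kidney epithelial cells. TJ cells carry the same genotype label, and were derived from a secondary tumor in C57BL6 mice. The untreated cells received diluent and the others 100 nM rapamycin, both for 18 hr in serum-free medium with albumin. How MKOC cells were made, their strain, and whether the TJ tumor grew from MKOC cells are not given in the sources used here. Whether a line is a single clone is not given either. No library is a repeat of another, so a p-value here measures only whether the difference between the lines was alike at both treatments. Differences of strain, passage or culture between the lines cannot be told apart from those of tumor origin.

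*Tsc2* encodes tuberin, which with hamartin (*Tsc1*) and *Tbc1d7* forms the complex that switches off the small GTPase Rheb and thereby mTORC1, the kinase complex that drives cell growth and anabolic metabolism. Cells without *Tsc2* keep mTORC1 active, and rapamycin inhibits it. In the kidney, loss of *Tsc1* or *Tsc2* gives rise to cysts, angiomyolipomas and carcinomas, and Tsc2-null kidney lines that grow as tumors in mice are used as models of tuberous sclerosis and of lymphangioleiomyomatosis (LAM).

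RNA was sequenced, and the deposited table gives, for each transcript, an estimated count of read pairs and the level as TPM, a share of the library's transcripts that allows for transcript length. Both were summed per gene here. Estimated counts totalled between 22887020 (MKOC rapamycin) and 30079631 (MKOC untreated) per library. Mitochondrial transcripts took 1.88% of the counts in MKOC untreated and between 3.66% and 4.51% in the other 3 libraries. A gene was called higher or lower in TJ at a Benjamini-Hochberg adjusted p under 0.05 in edgeR's quasi-likelihood test with the treatment as a second term. The fitted difference is the log2 fold change of TJ over MKOC, given with its standard error (SE).

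*Tsc2* RNA (chr17:24595816-24632630, GRCm38) was present in the libraries of both lines labelled Tsc2-null. It had 49.1 TPM in MKOC untreated, 19.5 TPM in MKOC rapamycin, 44.02 TPM in TJ untreated and 19.1 TPM in TJ rapamycin. The lines overlapped, and the fitted difference was -0.11 (SE 0.0993, adjusted p = 0.564). A transcript level does not show whether the reads come from an inactivated allele, so these values check no label. Kidney epithelial genes were high in all 4 libraries. The epithelial cadherin *Cdh1* lay between 101 and 128 TPM and the keratin *Krt8* between 539 and 990 TPM, and the kidney factor *Pax8* was at 121 to 164 TPM. *Epcam*, another common epithelial marker, had at most 1 count in each library. Defining markers of other cell types differed in level. *Ptprc*, the leukocyte marker CD45, had 1 to 3 counts, the endothelial *Pecam1* had 8 to 12, the fibroblast collagen *Col1a1* 8 to 21 and the fibroblast receptor *Pdgfra* 0 to 11 counts. The endothelial cadherin *Cdh5* had 70 to 253 counts, and *Dcn*, a marker of fibroblasts, had 207 to 1339 counts and up to 50.4 TPM, both with more in MKOC.

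Line and treatment left marks of different size. Across the 12952 genes tested, log2(TPM + 1) of the untreated MKOC and untreated TJ libraries had a correlation of 0.988 and that of the rapamycin libraries 0.982, against 0.976 for the MKOC pair and 0.975 for the TJ pair of different treatments. These are correlations across genes, which are not independent replicates. Of 9029 genes with at least 10 TPM in any library, 149 differed at least 2-fold in TPM + 1 between the untreated lines and 229 between the rapamycin-treated lines. Between treatments, 481 did so within MKOC and 437 within TJ.

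Of the genes tested, 709 (5.47%) were called higher in TJ and 430 (3.32%) lower. At least 2-fold differences were called for 358 genes higher in TJ (2.76%) and 106 lower (0.818%). The higher calls were also the larger ones, with a median of 1.01 against -0.58 for the lower calls. In each called gene the difference had the same sign at both treatments, which the fit favors, and 285 of the 358 and 83 of the 106 were at least 2-fold at each treatment alone. The TPM values of both TJ libraries lay above both MKOC libraries in 2002 genes tested (15.5%), and below both in 1776 (13.7%). Among called genes this held for 563 of the 709 and 340 of the 430. The calls need the treatment term. Without it, 0 genes were called by edgeR, although 702 had an unadjusted p under 0.05, since the treatment then counts as spread within a line. With 1 library left out the treatment term could not be fitted. Then 0 genes were called without MKOC untreated or without MKOC rapamycin, 93 of the calls were kept without TJ untreated and 38 without TJ rapamycin. Some of the genes named below changed sign in such a fit, among them *Ddit4*, *Psph*, *Pfkl*, *Vcam1* and *Id1*. DESeq2 with the same terms called 407 higher and 223 lower.

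**Figure D1:**
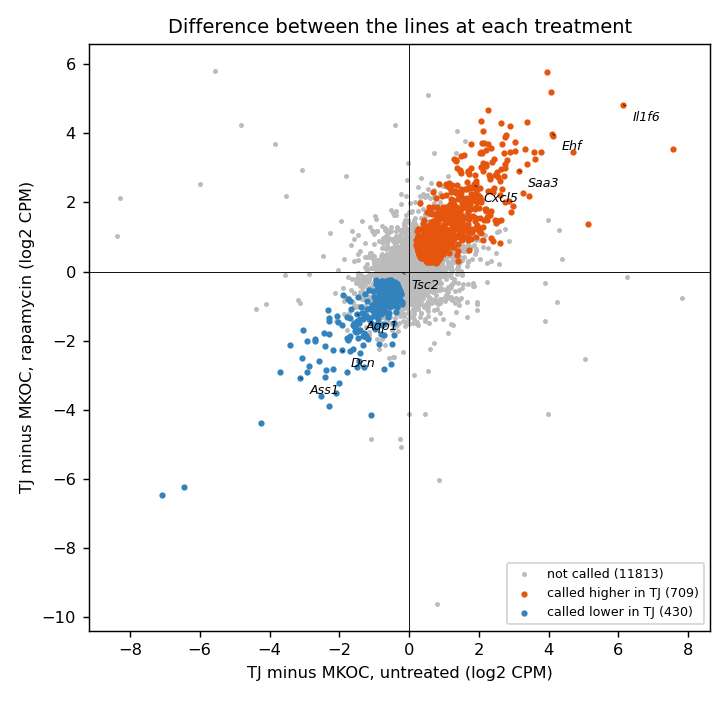
Difference between TJ and MKOC for each gene tested, in log2 of counts scaled to library size, for the untreated libraries (x axis) and the rapamycin libraries (y axis). Orange points are the 709 genes called higher in TJ and blue points the 430 called lower, and both sets lie along the diagonal, while *Tsc2* lies near the origin.

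The genes that led the higher calls, among those with at least 10 TPM in both TJ libraries, include secreted inflammatory and acute phase proteins, a transporter of the proximal tubule, enzymes and an epithelial transcription factor. *Il1f6* (IL-36 alpha, a cytokine of the IL-1 family made by epithelia) was at 0.0711 and 0.548 TPM in MKOC untreated and rapamycin, from 1 and 6 counts, and at 11.9 and 18.7 TPM in the corresponding TJ libraries. It was nearly silent in MKOC and present in TJ, with a fitted difference of 5.58 (SE 0.435, adjusted p = 7.01e-05). *Ehf*, an ETS factor of epithelial cells, had 2.09 and 2.22 TPM in MKOC and 24.3 and 32.2 TPM in TJ, a 16.6-fold difference (adjusted p = 5.87e-07). Treatment moved *Ehf* far less than line did. *Slc17a1*, a sodium phosphate and urate transporter of the proximal tubule brush border, was at 1.95 and 0.973 TPM in MKOC and 18.99 and 21.4 TPM in TJ (14.1-fold, adjusted p = 1.9e-05).

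Several of the leaders encode secreted proteins found in plasma or released in the acute phase response. *Saa3*, an acute phase serum amyloid, had 16.7 and 27.4 TPM in MKOC and 150.1 and 212 TPM in TJ, an 8.21-fold difference (adjusted p = 3.62e-06). *Gc*, the vitamin D binding protein, was at 11.7 and 5.07 TPM against 82.8 and 48.5 TPM (7.98-fold, adjusted p = 3.62e-06). *Lbp*, which binds bacterial lipopolysaccharide, had 6.89 and 6.29 TPM in MKOC against 29.96 and 60.3 TPM in TJ. *Sepp1*, the selenium carrier selenoprotein P, was at 22.4 and 8.32 TPM against 100.2 and 95.9 TPM. Within each line *Gc* was lower and *Saa3* higher with rapamycin.

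The others of the 15 leaders had differences between 2.14 and 2.90. They include enzymes of steroid and carbonyl metabolism, namely *Cyp21a1* (steroid 21-hydroxylase, 2.90), *Cbr2* (carbonyl reductase 2, 2.81) and *Hsd11b1* (which regenerates active glucocorticoid, 2.14). *Cyp21a1* has a near-identical pseudogene beside it, so its counts are uncertain. *Cd74*, the invariant chain of MHC class II, differed by 2.64, with 37.1 and 7.36 TPM in MKOC and 154 and 80.7 TPM in TJ. *Limch1*, an actomyosin regulator, stood at 12.4 and 14.8 TPM against 58.0 and 56.0 TPM (2.43, SE 0.117). *Malrd1* (2.61), *Plac8* (2.17) and the chemokine *Cxcl5* (2.19) complete the set.

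The 15 genes that led the lower calls had differences between -2.15 and -1.01, and were of varied function. *Dynap* had 11.2 and 25.6 TPM in MKOC and 4.03 and 3.80 TPM in TJ, a difference of -2.15 (SE 0.283, adjusted p = 0.00158). *Dcn*, the collagen-binding proteoglycan decorin, was at 25.5 and 50.4 TPM against 6.73 and 10.5 TPM, which is 4.35-fold lower in TJ (adjusted p = 2.85e-05). Each line had more *Dcn* with rapamycin, and treated TJ cells still had less than untreated MKOC cells. *Fn1*, the matrix glycoprotein fibronectin, had 32.6 and 37.4 TPM in MKOC and 12.9 and 16.1 TPM in TJ (-1.29, SE 0.102). *Aqp1*, the water channel of the proximal tubule and thin descending limb, was at 24.3 and 28.0 TPM against 8.74 and 12.1 TPM (-1.36, SE 0.125). *Sema3a*, a secreted guidance cue, was the most abundant gene of the set after *Prl2c3*, with 46.7 and 73.1 TPM in MKOC and 17.1 and 27.8 TPM in TJ (-1.53).

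*Tspan7* (a tetraspanin, -1.84), *Fgfbp1* (which releases FGFs from the matrix, -1.66), *Akr1c13* (an aldo-keto reductase, -1.59), *Ddah1* (which breaks down an inhibitor of nitric oxide synthase, -1.58), *Gusb* (lysosomal beta-glucuronidase, -1.54), *Fam184a* (-1.48), *Marcks* (an actin-binding kinase substrate, -1.39), *Nkain1* (-1.09) and *Sdpr* (a caveolar protein, -1.01) were also lower. *Prl2c3* was at 352 and 893 TPM in MKOC and 265 and 256 TPM in TJ (-1.13). It belongs to a family of near-identical prolactin-like genes, among which the counting could have split reads. The TPM values of the lines did not overlap for any of the 30 leading genes, against the 15.5% and 13.7% of all genes above. Having a large difference was how they were chosen, so nothing is read from that.

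**Figure D2:**
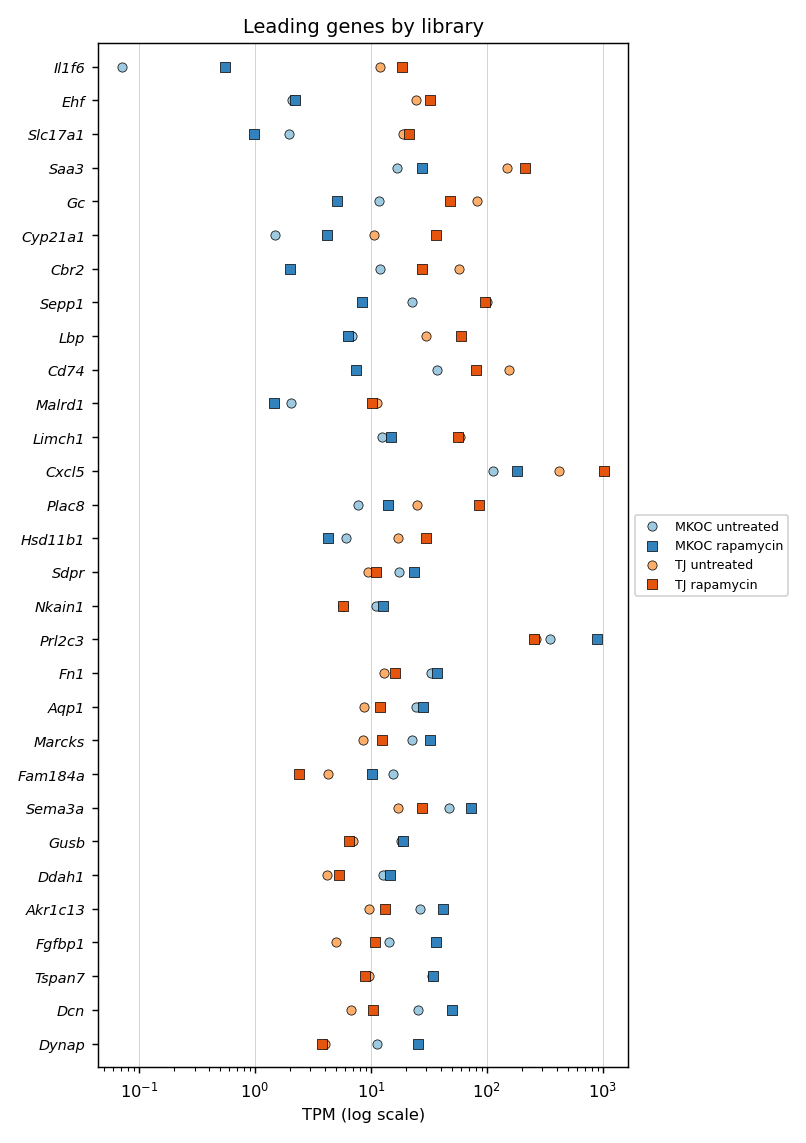
TPM on a log scale of the 15 leading genes higher in TJ (top) and the 15 leading genes lower in TJ (bottom), with 1 point per library. Orange TJ points lie to the right of the blue MKOC points from *Il1f6* to *Hsd11b1* and to their left from *Sdpr* to *Dynap*, at both treatments.

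Chemokines and cytokines were mostly higher in TJ. Of 40 genes on this list, 28 were tested, of which 19 were called higher (67.9%, against 5.47% of all genes), 14 of them at least 2-fold, and 1 lower. The median difference was 1.20, against -0.01 over all genes. *Cxcl5*, a neutrophil chemokine of the CXCR2 group, had 112 TPM in MKOC untreated, 180.5 TPM in MKOC rapamycin, 419.6 TPM in TJ untreated and 1026 TPM in TJ rapamycin. Both lines had more *Cxcl5* with rapamycin, and untreated TJ cells still had more than treated MKOC cells. *Cxcl3*, of the same group, had 25.7 and 18.8 TPM in MKOC and 91.0 and 88.6 TPM in TJ (2.0004, SE 0.137, adjusted p = 3.24e-05). *Ccl20*, which attracts CCR6-bearing lymphocytes and dendritic cells, was at 15.2 and 49.9 TPM against 73.0 and 179 TPM (1.99, SE 0.135). *Cxcl9*, an interferon-gamma induced chemokine, rested on 2 and 1 counts in MKOC and 13 in each TJ library (adjusted p = 0.0194).

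The other 15 members called higher were *Lcn2*, *Il33*, *Il1a*, *Cxcl10*, *Csf2*, *Cxcl1*, *Il15*, *Csf3*, *Cxcl2*, *Ccl7*, *Ccl2*, *Cx3cl1*, *Cxcl16*, *Lif* and *Spp1*, down to a difference of 0.46. *Tslp*, an epithelial alarmin, was the member called lower, at 5.55 and 10.2 TPM in MKOC and 1.69 and 5.69 TPM in TJ (-1.23, SE 0.289, adjusted p = 0.0273). DESeq2 called 12 members higher and 0 lower, with *Tslp* among those not called. The leukocyte markers were measured beside them. Of 22 listed, 7 were tested, with 3 called higher (42.9%, against 5.47% of all genes) and 1 lower (14.3%, against 3.32%). Of these 7, DESeq2 called 2 higher and 0 lower. All 22 summed to 85.9 and 65.4 TPM in MKOC and 215 and 157 TPM in TJ, including *Cd74* at the levels above. The receptor *Csf1r* (11.3 and 17.7 against 24.99 and 30.3 TPM, 0.94) and *Cd14* (6.76 and 9.91 against 10.04 and 19.4 TPM, 0.76) were also called higher and *Cd79a* lower (-0.74), while the defining marker *Ptprc* stayed at 3 counts or fewer in all 4 libraries.

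Complement and acute phase genes differed in one direction. Of 18 listed, 12 were tested and 11 were called higher (91.7%, against 5.47% of all genes), all at least 2-fold, with a median of 1.56, and none lower. DESeq2 called 10 members higher. *Lcn2* (lipocalin 2, which is on both lists, an iron-siderophore trap released by injured tubules) was the most abundant, with 339 and 332 TPM in MKOC and 944 and 1659 TPM in TJ (3.68-fold, SE 0.171 on the log2 scale, adjusted p = 0.000159). *Serping1*, the inhibitor of complement C1, was at 0.277 and 0.323 TPM against 1.05 and 1.496 TPM. *C4b*, a complement component with a close copy, was at 0.210 and 0.611 TPM against 1.44 TPM in both TJ libraries. The remaining called members were *Saa3*, *Cfb*, *Orm1*, *C1s1*, *C1ra*, *C3*, *Cp* and *Clu*. The listed genes summed to 673 and 1008 TPM in MKOC and to 1801 and 3587 TPM in TJ.

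**Figure D3:**
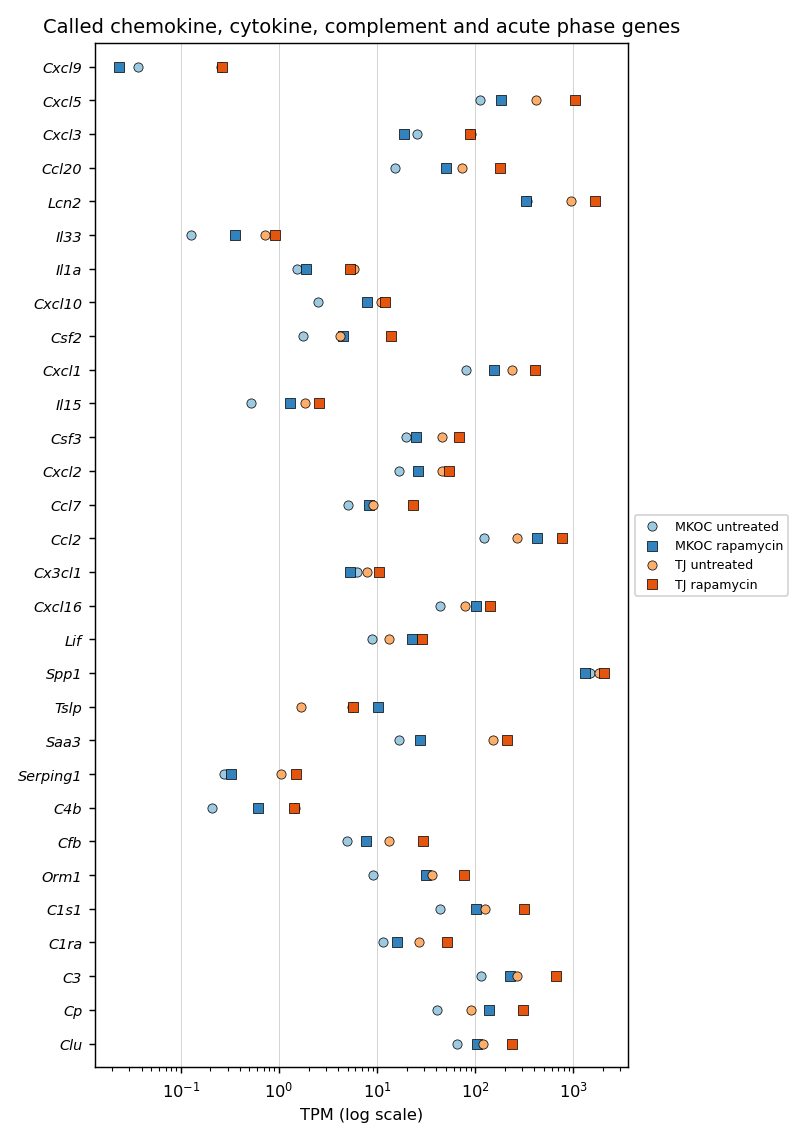
TPM on a log scale, with 1 point per library, of the genes called in the chemokine and cytokine list (*Cxcl9* to *Tslp*) and of the further genes called in the complement and acute phase list (*Saa3* to *Clu*). *Tslp* is the one gene of the plot that was lower in TJ.

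*Cxcl5*, *Ppbp*, *Cxcl3*, *Cxcl1* and *Cxcl2* are neighbours among the genes tested, at chr5:90759360-90905938, and all 5 were higher in TJ by 1.23 to 2.19. Their promoters are printed for those that RefSeq's table of promoters (GRCm38.p6) held and in which a motif of a known inflammatory regulator was found, as the 250 bases before the start, read on the gene's strand. Capitals mark matches on either strand to the NF-kB motif GGGAANTTCC, to the C/EBP motif TTNNGNAA or to the interferon-stimulated response element (ISRE) GAAANNGAAA. The *Cxcl3* window lies at chr5:90785851-90786100, *Cxcl1* at chr5:90890995-90891244 and *Cxcl2* at chr5:90903649-90903898, all on the plus strand.
Cxcl3: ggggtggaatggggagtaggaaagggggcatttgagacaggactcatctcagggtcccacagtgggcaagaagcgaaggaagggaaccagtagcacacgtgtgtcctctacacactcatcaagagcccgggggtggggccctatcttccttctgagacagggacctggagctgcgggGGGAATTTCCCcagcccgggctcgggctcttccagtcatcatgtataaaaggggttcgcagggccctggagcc
Cxcl1: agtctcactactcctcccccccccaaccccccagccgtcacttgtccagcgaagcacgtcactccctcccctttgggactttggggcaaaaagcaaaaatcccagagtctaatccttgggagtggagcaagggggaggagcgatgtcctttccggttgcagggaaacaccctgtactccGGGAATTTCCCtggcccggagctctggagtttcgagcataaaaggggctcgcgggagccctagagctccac
Cxcl2: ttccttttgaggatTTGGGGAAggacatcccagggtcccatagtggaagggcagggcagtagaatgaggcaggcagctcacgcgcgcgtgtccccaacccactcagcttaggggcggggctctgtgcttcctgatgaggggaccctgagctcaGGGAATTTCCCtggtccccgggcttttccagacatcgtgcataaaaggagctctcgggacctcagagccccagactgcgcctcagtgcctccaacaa
The NF-kB match of these genes starts 73, 71 and 97 bases before the start, respectively, and reads as a match on both strands shifted by 1 base. *Cxcl2* has in addition a C/EBP match.

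*Saa3* (chr7:46715677-46715926, minus strand) and *Ifit3* (chr19:34583279-34583528, plus strand) are shown as an acute phase and an interferon-induced gene with several matches.
Saa3: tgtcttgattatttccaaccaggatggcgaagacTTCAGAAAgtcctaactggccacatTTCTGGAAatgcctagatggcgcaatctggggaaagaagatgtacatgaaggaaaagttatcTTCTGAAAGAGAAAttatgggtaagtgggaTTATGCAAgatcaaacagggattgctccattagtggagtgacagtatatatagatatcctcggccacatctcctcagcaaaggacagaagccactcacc
Ifit3: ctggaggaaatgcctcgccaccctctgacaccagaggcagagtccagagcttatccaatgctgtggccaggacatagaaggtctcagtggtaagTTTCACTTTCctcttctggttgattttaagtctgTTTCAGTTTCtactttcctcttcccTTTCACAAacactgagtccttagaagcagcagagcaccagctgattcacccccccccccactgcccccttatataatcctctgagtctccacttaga
The *Saa3* window has 4 C/EBP matches and 1 ISRE match that overlaps one of them. The *Ifit3* window has 2 ISRE matches and 1 C/EBP match.

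A promoter was matched for 9508 of the 12952 genes tested. The NF-kB motif was found in 31 of them (0.326%), the ISRE in 253 (2.66%) and the short C/EBP motif in 2672 (28.1%). Of the 13 chemokine and cytokine promoters of genes called higher, 4 held the NF-kB motif (*Cxcl1*, *Cxcl2*, *Cxcl3* and *Cxcl10*) and 7 the C/EBP motif. All 6 matched promoters of called complement and acute phase genes (*C1ra*, *C1s1*, *C3*, *Cp*, *Lcn2*, *Saa3*) held the C/EBP motif. Among interferon-list genes the ISRE stood in 10 of the 21 promoters of genes called higher (47.6%) and in 8 of the 20 of genes not called (40%). Over all genes called at least 2-fold higher, 4 of 253 promoters held the NF-kB motif (1.58%), 21 the ISRE (8.3%) and 101 the C/EBP motif (39.9%). Among those called at least 2-fold lower, 1 of 73 held the NF-kB motif (1.37%), 1 the ISRE (1.37%) and 26 the C/EBP motif (35.6%). The shares for NF-kB and C/EBP were thus similar in both directions. A match is a description of the letters and says nothing of binding.

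Of 52 interferon-induced and antigen presentation genes, 51 were tested. Of these 27 were called higher (52.9%, against 5.47% of all genes), 8 of them at least 2-fold, 24 were not called and 0 were lower, and the median difference was 0.59, with 0.58 in the untreated and 0.59 in the rapamycin libraries. *Ifit3*, which dampens translation and viral replication, was at 2.48 and 3.47 TPM in MKOC and 8.13 and 12 TPM in TJ (1.73, SE 0.201, adjusted p = 0.000839). Its neighbour *Ifit1* was at 1.45 and 3.65 TPM against 4.27 and 8.66 TPM (1.37). *Oas2*, which makes the second messenger that activates RNase L, was at 0.773 and 1.89 TPM against 2.33 and 4.997 TPM (1.53). *Zbp1*, a sensor of Z-form nucleic acid, overlapped between the lines, with 1.22 and 8.50 TPM in MKOC and 6.37 and 16.5 TPM in TJ (1.40, SE 0.312).

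Genes of the MHC region on chromosome 17 lay next to each other in the set. *Tap1* (6.53 and 4.60 TPM in MKOC, 10.6 and 12.1 TPM in TJ, 0.99) and *Tap2* (13.9 and 13.6 TPM, 18.0 and 29.0 TPM, 0.75) form the peptide transporter of MHC class I. *Psmb8*, a subunit of the immunoproteasome, was at 34.3 and 31.8 TPM in MKOC against 56.0 and 93.2 TPM in TJ (1.06, SE 0.159). The class II genes *H2-Aa* and *H2-Ab1* followed in the same run with few counts, 1 to 4 in each MKOC library and 14 to 28 in each TJ library. With the DESeq2 test 18 members of the interferon list were called higher, and 0 lower.

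Nephron segment markers were called in both directions for the proximal tubule, and in the higher direction for the distal nephron and collecting duct. Of 35 proximal tubule genes, 15 were tested, with 4 called higher (26.7%, against 5.47% of all genes) and 2 lower (13.3%, against 3.32%) and a median of 0.02. *Havcr1*, the kidney injury molecule KIM-1, was at 0.262 and 0.570 TPM in MKOC and 4.01 and 10.3 TPM in TJ (17.3-fold, adjusted p = 6.11e-05). *Slc6a19*, a neutral amino acid transporter, was at 0.259 and 0.398 TPM against 1.65 and 1.75 TPM, and *Vcam1*, an adhesion molecule, overlapped (0.70, SE 0.182). The glucose transporter *Slc5a1* rested on 3 and 0 counts in MKOC and 17 and 25 in TJ (adjusted p = 0.0149). In the other direction, *Ass1*, an enzyme of arginine synthesis, was at 2.79 and 4.02 TPM in MKOC and 0.293 and 0.182 TPM in TJ (9.59-fold lower, adjusted p = 0.00122), and *Aqp1* was lower as above. DESeq2 called 1 member higher and 2 lower. The untested members of the list reached at most 0.368 TPM in any library.

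Of 31 collecting duct genes, 13 were tested, and the 18 others reached at most 0.8 TPM in any library. Of those tested, 6 were called higher (46.2%, against 5.47% of all genes) and none lower, with a median of 0.67. The whole list summed to similar levels, at 501 and 910 TPM in MKOC and 504 and 931 TPM in TJ. *Elf3*, an ETS factor related to *Ehf*, was at 5.91 and 4.75 TPM in MKOC and 14.1 and 10.9 TPM in TJ (1.17, SE 0.162). *Slc26a4* (pendrin, 1.42), *Slc4a1* (the anion exchanger of acid-secreting cells, 1.45), *Aqp3* and *Tfcp2l1* were also called. The vasopressin receptor *Avpr2* rested on 2 and 0 counts in MKOC against 11 and 10 in TJ. DESeq2 called 2 members higher. *Bsnd*, the chloride channel subunit barttin of the thick limb and intercalated cells, had 8.30 and 8.21 TPM in MKOC and 16.1 and 38.0 TPM in TJ (1.57, SE 0.236). It was the 1 called of 4 limb genes tested (25%, against 5.47% of all genes), of which DESeq2 called 0. In the distal and connecting tubule list *Wnk4* (0.65), a kinase that regulates salt transport, and *Trpm6* (0.40), a magnesium channel, were called higher among 5 tested (40%, against 5.47% of all genes), and both overlapped between the lines. Of these 5, DESeq2 called 1 higher and limma on log2(TPM + 1) called 0.

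Among 19 renal lineage genes tested, 4 were called higher (21.1%, against 5.47% of all genes) and 1 lower (5.26%, near the 3.32% of all genes). *Wnt4*, needed for nephron formation, was at 2.34 and 2.02 TPM in MKOC and 4.62 and 7.45 TPM in TJ (1.41, SE 0.217). *Cdh16*, the kidney-specific cadherin, was abundant in both lines, with 395 and 537 TPM against 578 and 720.0 TPM (0.47). *Tfap2a* (0.44) and *Pkhd1*, the gene of recessive polycystic kidney disease (0.48), were higher and *Pkd2*, a gene of dominant polycystic kidney disease, was lower (-0.47). Of 45 epithelial junction and keratin genes tested, 5 were called higher (11.1%, against 5.47% of all genes) and 2 lower (4.44%, near the 3.32% of all genes), with a median of 0.06. *Cldn2*, the cation-pore claudin of the proximal tubule, was at 3.16 and 1.5 TPM in MKOC and 6.52 and 14.6 TPM in TJ (2.22, SE 0.353). The tight junction scaffold *Tjp3*, the laminin chain *Lamb3* (0.68), *Ehf* and *Elf3* were the other members called higher, and the desmosome protein *Pkp1* (-1.27) and the keratin *Krt80* (-0.52) were lower.

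Of 24 genes tested that are linked to epithelial-mesenchymal transition, 3 were called lower (12.5%, against 3.32% of all genes) and 2 higher (8.33%, against 5.47%), with a median of -0.18. *Foxf1*, a mesenchymal transcription factor, was at 2.02 and 5.14 TPM in MKOC and 0.322 and 0.839 TPM in TJ (-2.64, SE 0.298, adjusted p = 0.000708). *Cdh2*, N-cadherin, was at 1.32 and 2.69 TPM against 0.553 and 0.703 TPM (-1.59), and *Fn1* was lower as above. *Tgfb3* (0.87) and *S100a4* (0.72) were higher. Of 15 fibroblast markers tested, *Fbln1* (0.449 and 0.437 TPM in MKOC, 3.39 TPM in both TJ libraries, 2.79) and *Pdgfrb* were called higher and *Dcn* lower, shares of 13.3% and 6.67% against 5.47% and 3.32% of all genes. *Pdgfrb* had at most 17 counts in any library. The summed level of the fibroblast list was 459 and 668 TPM in MKOC and 505 and 689 TPM in TJ.

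In the other cell type lists 0 to 2 genes each were called, with shares of 13.3% higher (smooth muscle), 25% lower (endothelial), 20% lower (mesothelial) and 16.7% higher (podocyte) that rest on few genes, against 5.47% and 3.32% of all genes. *Rgs5* and *Mylk* (1.71) were higher among 15 smooth muscle genes tested, the former from at most 15 counts. *Cdh5* was lower among 4 endothelial genes tested, at 3.30 and 2.98 TPM in MKOC and 1.14 and 1.01 TPM in TJ (-1.57, SE 0.219), and the 17 endothelial markers summed to 19.2 and 17.2 TPM in MKOC and 13.5 TPM in both TJ libraries. *Msln* was lower among 5 mesothelial genes tested (-0.43) and *Synpo* higher among 6 podocyte genes tested (0.48), both with overlapping TPM values, and DESeq2 called 0 in both lists. None of the 10 melanocytic and LAM-associated genes tested was called, and their differences lay between -0.22 and 0.53. Whether any of these small contributions come from other cells was not tested.

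In the matrix, the collagen IV genes that were called, *Col4a1* to *Col4a4*, differed between the lines in opposite directions. Collagen IV networks are built of either the widespread alpha1 and alpha2 chains or of alpha3, alpha4 and alpha5 chains, and the neighbouring genes of alpha1 and alpha2, like those of alpha3 and alpha4, share a promoter region. *Col4a1* was at 11.4 and 7.37 TPM in MKOC and 2.32 and 3.42 TPM in TJ (-1.71, SE 0.229, adjusted p = 0.00162). *Col4a2* was at 10.3 and 8.22 TPM against 1.16 and 2.13 TPM (-2.34, SE 0.193). *Col4a3* was instead higher, at 2.97 and 2.24 TPM in MKOC and 5.47 and 5.28 TPM in TJ (1.04, SE 0.139), and so was *Col4a4*, at 4.78 and 2.94 TPM against 8.16 and 7.54 TPM (1.11, SE 0.125). The TPM values of both TJ libraries lay above both MKOC libraries for the latter pair and below for the former, as in 15.5% and 13.7% of all genes. *Col18a1* was the remaining collagen called (0.49), and of 18 tested 16.7% were higher and 11.1% lower, against 5.47% and 3.32% of all genes.

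Of 25 laminins, integrins and basement membrane genes tested, 6 were called higher (24%, against 5.47% of all genes) and 1 lower (4%, near the 3.32% of all genes). The collagen-binding integrin *Itga1* was at 6.60 and 3.11 TPM in MKOC and 17.6 and 13.6 TPM in TJ (1.73, SE 0.161). *Itgb2*, the beta chain of leukocyte integrins, was at 3.40 and 3.53 TPM against 7.87 and 8.57 TPM (1.31). *Lama4* (1.72, at most 0.869 TPM), perlecan (*Hspg2*, 0.78), *Lamb3* and *Lamb1* were higher and *Itga7* lower (-0.67). Among 34 matrix proteases and inhibitors, *Plau*, the urokinase plasminogen activator, was higher (77.5 and 104 TPM in MKOC, 146 and 230.5 TPM in TJ, 1.01, SE 0.103), with *Ctsh* (2.22), *Adamts4* (0.91) and *Mmp15* (0.90). The metalloprotease inhibitors *Timp1* (48.2 and 54.5 TPM in MKOC, 33.5 and 30.7 TPM in TJ, -0.70) and *Timp3* (-0.45) were lower. These are 11.8% higher and 5.88% lower, against 5.47% and 3.32% of all genes, and DESeq2 called 2 members in each direction. Of 17 genes tested in a list of proteoglycans and mucins that also holds tenascins, 23.5% were called in each direction, against 5.47% and 3.32% of all genes. The higher ones were *Sdc3* (2.29), the tenascin *Tnxb* (2.09), *Muc20* (1.76) and *Sdc1* (0.51). The lower ones were *Dcn*, the tenascin *Tnc* (-0.60), *Gpc6* (-0.57) and *Gpc1* (-0.36).

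Signaling genes were called in both directions. In the IGF axis, of which 15 members were tested, *Igf1* was at 0.306 and 0.391 TPM in MKOC and 3.43 and 2.69 TPM in TJ (13.4-fold, adjusted p = 0.000139) and *Igfbp7*, an IGF-binding protein, at 15.6 and 16.5 TPM against 21.9 and 29.4 TPM (0.65). The other 13 members tested were not called, so that 13.3% were higher against 5.47% of all genes. In the TGF-beta, BMP and activin list 4 of 33 tested were called higher (12.1%, against 5.47% of all genes) and 3 lower (9.09%, against 3.32%). *Ltbp2* was at 2.51 and 7.94 TPM in MKOC and 8.41 and 32.4 TPM in TJ (1.83, SE 0.131), the target genes *Id1* (0.68) and *Id2* (0.63) were higher with *Tgfb3*, and the activin subunit *Inhba* (-1.30), the receptor *Bmpr1b* (-1.13) and *Ltbp1* (-0.88) were lower. Of 34 genes of the EGF, FGF, HGF and VEGF list, 2 were called higher (5.88%, near the 5.47% of all genes). *Tgfa*, a ligand of the EGF receptor, was higher (24.5 and 27.4 TPM against 35.4 and 48.0 TPM, 0.60), with *Mst1r*, the receptor RON, which had at most 59 counts in a library (1.38). Its TPM went the other way, at 1.24 and 0.940 in MKOC and 0.640 and 0.858 in TJ. Of 21 Wnt pathway genes, the receptor *Fzd6* (-0.61) was called lower and *Wnt4* higher, a share of 4.76% in each direction, near those of all genes.

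Of 23 genes tested in the Notch, Hedgehog and YAP list, *Dll1* (0.87), *Notch2* (0.65) and *Notch1* (0.61) were called higher and *Hhip*, a Hedgehog-binding protein, lower (-1.58), shares of 13% and 4.35% against 5.47% and 3.32% of all genes. Limma on log2(TPM + 1) called 0 of the 18 it tested in either direction. For *Notch1* the counts rose from 1633 and 1259 to 1847 and 2764, whereas its TPM was 8.99 and 43.0 in MKOC and 11.9 and 17.1 in TJ, so the 2 quantities differ in direction under rapamycin. Of 29 Hox genes tested, *Hoxa10* (0.61) and *Hoxa9* (0.44) were called higher and *Hoxd8* (-0.47) lower, shares of 6.9% and 3.45% that are near those of all genes. Of 19 imprinted genes tested, the neighbours *Peg3* (-0.96) and *Zim1* (-0.93) were lower (10.5%, against 3.32% of all genes) and none was higher. Among 15 germline and methylation-linked genes, *Rhox5* (2.12) and *Xlr3a* (0.48) were higher and *Hmga2* (-2.0013) lower, *Rhox5* from 5 to 36 counts, with shares of 13.3% and 6.67% against 5.47% and 3.32% of all genes. DESeq2 called 0 of these 15 in either direction.

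Of 38 TSC and mTOR complex genes tested, 1 was called higher (2.63%, against 5.47% of all genes) and 1 lower (2.63%, against 3.32%), and the median was -0.0042. *Ddit4*, which activates the TSC complex under stress, was higher (95.0 and 20.8 TPM in MKOC, 138 and 52.5 TPM in TJ, 0.90, SE 0.165), and *Rragd*, a Rag GTPase of the lysosomal mTORC1 platform, was lower (5.23 and 3.58 against 2.33 and 1.71 TPM, -1.15, SE 0.164). Both were lower with rapamycin within each line. Of 35 ATF4 targets and amino acid genes, the serine synthesis enzyme *Psph* was called (-0.63), a share of 2.86% lower that is near the 3.32% of all genes. Of 42 cell cycle and mitosis genes, the helicase subunits *Mcm7* (215 and 219 TPM in MKOC, 161 TPM in both TJ libraries, -0.44) and *Mcm4* (-0.36) were called lower (4.76%, near the 3.32% of all genes), and the median was -0.11.

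Glycolysis and hypoxia genes were called higher in 8 of 36 (22.2%, against 5.47% of all genes) and lower in none, with a median of 0.25. *Pfkfb3*, which makes the activator of phosphofructokinase, was at 33.7 and 16.5 TPM in MKOC and 59.0 and 51.01 TPM in TJ (1.25, SE 0.159). The pH-regulating carbonic anhydrases *Car12* (0.9955) and *Car9* (0.98) and the phosphofructokinase *Pfkl* (0.68) followed, with *Ldhb*, *Egln3*, *Adm* and *Hif1a*. The median was 0.08 in the untreated and 0.34 in the rapamycin libraries, and this gap was not tested. The list of p53 targets and cell cycle inhibitors also holds cyclins, and 34 of its genes were tested. Of these, 6 were higher (17.6%, against 5.47% of all genes), led by the death receptor *Fas* (1.25), *Btg2* (0.90), *Trp53inp1* (0.81) and the cyclin *Ccnd2* (0.53). The 3 lower ones were all cyclins (*Ccne1* -0.48, *Ccnd1* -0.47, *Ccne2* -0.46), which is 8.82% against 3.32% of all genes. DESeq2 called 1 member lower and limma on log2(TPM + 1) called 0 lower. In detoxification, *Gstt1* (1.22), *Gpx3* (1.20), *Ugt1a6a* (0.94) and *Ephx1* (0.62) were higher and *Akr1c13* and *Txnrd1* (-0.35) lower of 39 tested (10.3% and 5.13%, against 5.47% and 3.32% of all genes). The lysosomal lipid genes *Lipa* (0.56) and *Npc2* (0.43) were higher of 30 tested (6.67%, near the 5.47% of all genes). All 3 called of 34 sterol and fatty acid genes, *Aacs* (-0.62), *Mvk* (-0.54) and *Dhcr7* (-0.49), were lower (8.82%, against 3.32% of all genes), and all 3 lie in the chromosome segments described next.

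**Figure D4:**
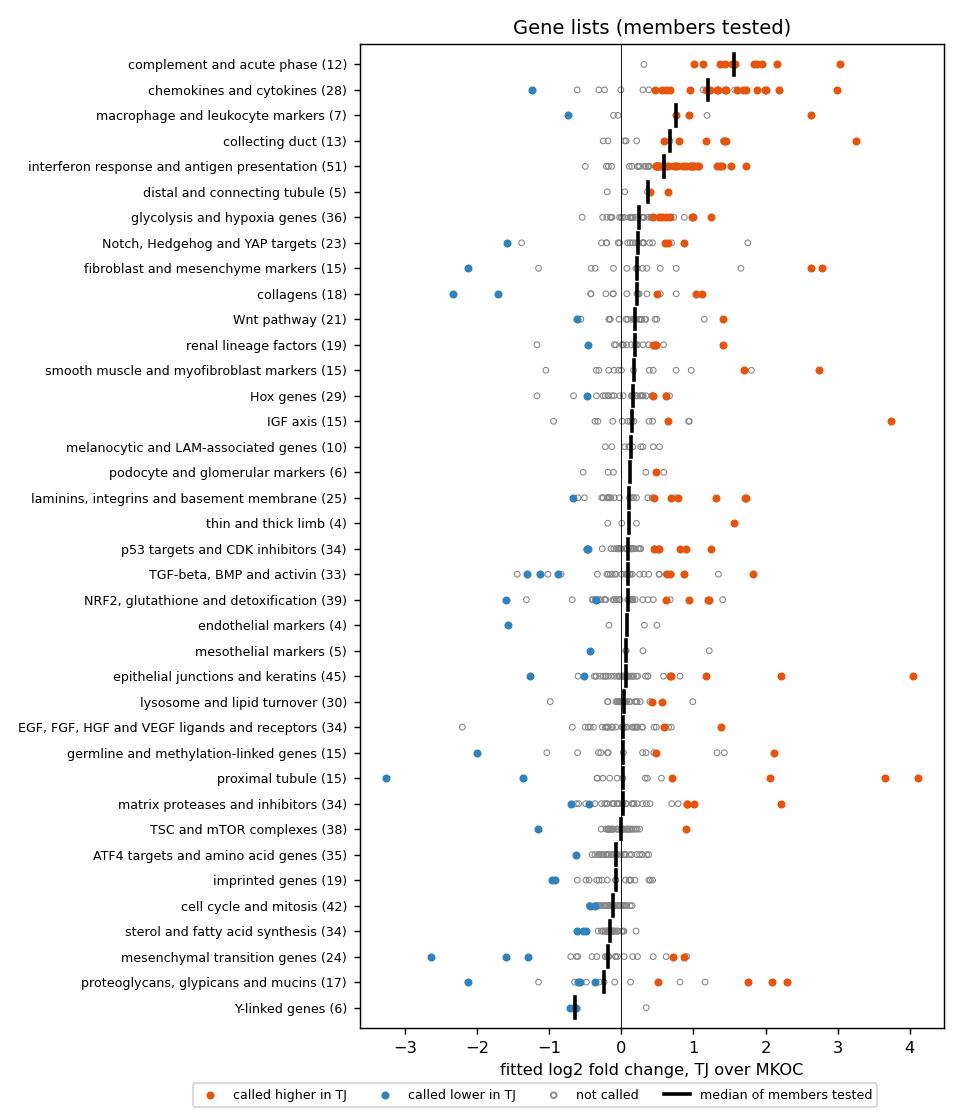
Fitted log2 fold change of TJ over MKOC for each tested member of the 38 gene lists, with the number tested in brackets and a bar at each list's median. Complement and acute phase genes and chemokines have the highest medians (1.56 and 1.20) and Y-linked genes the lowest (-0.64), while most lists are centred near 0.

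Along the genome, small differences ran in the same direction over long stretches. In 137 windows of 20 Mb with at least 20 tested genes, chosen after the medians of whole chromosomes were seen, the median difference lay between -0.34 and 0.22, and 132 windows were within 0.25 of 0. The other 5 were at the far end of chromosomes 5 and 7. On chromosome 5, the 351 genes before 100 Mb had a median of 1e-04, with 2.56% called lower. The 468 genes beyond 100 Mb had a median of -0.32 (quartiles -0.43 and -0.17), 407 of them were below 0 and 96 (20.5%) were called lower, against 3.32% of all genes. The median there was -0.33 in the untreated and -0.29 in the rapamycin libraries. Beyond 100 Mb on chromosome 7, 371 genes had a median of -0.25 and 60 (16.2%) were called lower. The 639 genes before 100 Mb on that chromosome were also shifted, by less, with a median of -0.11, 68.2% of them below 0 and 4.23% called lower. A shift of that size was not particular to chromosome 7, since the 1082 genes of chromosome 2 also had a median of -0.11.

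These segments held 156 of the 430 lower calls, among them *Gusb*, *Mcm7*, *Pkd2*, *Psph*, *Aacs*, *Mvk*, *Hsph1* and *Brca2* of chromosome 5 and *Ccnd1* and *Dhcr7* of chromosome 7. Outside them 2.26% of 12113 genes were called lower. Chromosome 6 went the other way over its whole length, with a median of 0.17 over 615 genes, 9.27% called higher and 1.46% lower. Chromosomes 1 and 12 had 9.99% and 10.8% called higher, against 5.47% of all genes, with medians of 0.10. The 13 mitochondrial genes had 23.1% called higher with a median of 0.54. Their median difference in log2(TPM + 1) was 0.97 in the untreated but 0.14 in the rapamycin libraries, so it lay mostly in the untreated ones. There the mitochondrial share was higher in TJ than in MKOC, as given above. Of 6 listed Y-linked genes tested, 4 were called lower (66.7%, against 3.32% of all genes) and 2 were not called, 1 of them at 0.34. Those called, *Eif2s3y* (124 and 130.1 TPM in MKOC, 84.9 and 76.0 TPM in TJ), *Ddx3y*, *Kdm5d* and *Uty*, were lower by similar amounts (-0.63 to -0.71), and each remained expressed in TJ. DNA copy number was not measured, and its part in these shifts was not tested.

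**Figure D5:**
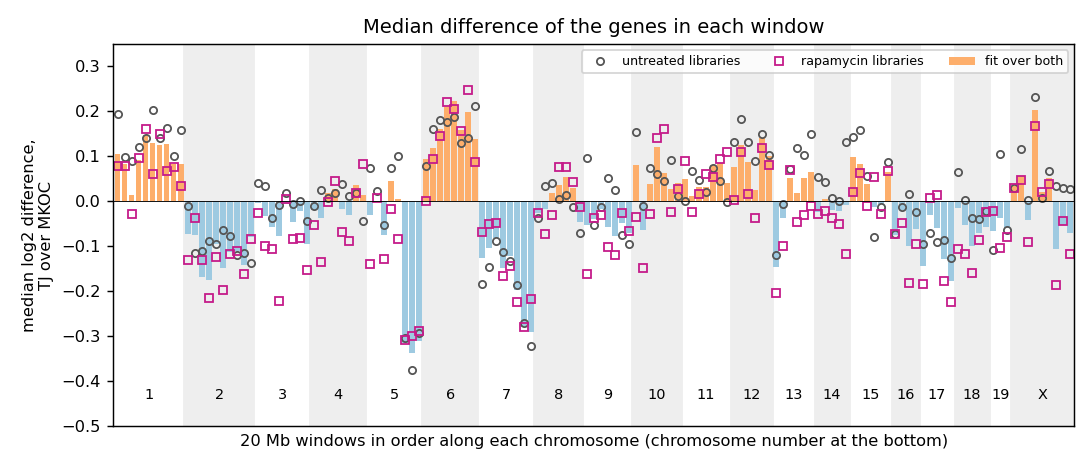
Median log2 difference of TJ over MKOC in 137 windows of 20 Mb, in order along chromosomes 1 to 19 and X, as bars for the fit and as open symbols for the untreated and rapamycin libraries. The lowest bars are the last windows of chromosomes 5 and 7, below 0 at both treatments, and the bars of chromosome 6 all lie above 0.

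Called genes also lay side by side in smaller groups with larger differences. These were looked for after the values were seen. Runs of at least 4 neighbouring tested genes called in the same direction numbered 12, of which 8 were higher in TJ and 4 lower. Beside the chemokine and MHC runs, the higher ones were the interferon-inducible p200 family on chromosome 1 (*Ifi204*, *Mndal*, *Mnda*, *Ifi203*, *Ifi205*), complement *C1rl*, *C1ra*, *C1s1* and *C1s2* on chromosome 6, *Btg2*, *Chit1*, *Chil1* and *Mybph* on chromosome 1 (of which the chitinase-like *Chil1* was at 13.3 and 37.0 TPM in MKOC, 73.0 and 128 TPM in TJ, 2.03), the UDP-glucuronosyltransferases *Ugt1a9* to *Ugt1a6a*, the Rhox2 and *Rhox5* homeobox genes of the X chromosome, and *Tnxb* to *Cyp21a1* on chromosome 17. The Ugt1a genes share exons, and the p200, Rhox2, C1s and *Tnxb* genes have close copies, so reads could be split among them and their values are uncertain. The lower runs were the Y genes, the chromosome 5 genes *Hsph1*, *B3glct*, *Fry* and *Brca2*, the olfactory receptors beside *Zim1* and *Peg3* on chromosome 7, and a run on chromosome 3 that holds *P2ry14*. *P2ry14*, a receptor for UDP-glucose, was at 2.56 and 2.82 TPM in MKOC and 0.309 and 0.341 TPM in TJ (-3.02, SE 0.373).

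Genes with reads in one line and next to none in the other were sought by a rule on counts. With at least 10 TPM in both libraries of a line and at most 3 counts in each library of the other, 1 gene met the rule for TJ and 0 for MKOC. The 1 was the predicted gene *Gm11027*, with 3 and 2 counts in TJ and 1 in each MKOC library. Its transcript is shorter than 300 bases, so these counts give 12.9 and 10.2 TPM in TJ and 4.73 and 4.85 TPM in MKOC, and it was not silent in MKOC. No gene was therefore seen to be expressed at 10 TPM in one line and absent from the other by this rule. With 1 TPM in place of 10, 22 genes met the rule for TJ and 17 for MKOC, mostly predicted genes and pseudogenes with few counts, and *Gm11027* and *Gm12941* met it for both lines.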

How the data were processed

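Poly(A) RNA libraries were stranded (TruSeq). The authors trimmed reads with Trimmomatic and ran Kallisto, and deposited estimated counts and TPM for 88198 mouse transcripts. The Kallisto version and annotation are not given in the sources used here, and the methods name a human build although the identifiers are mouse. A second file deposited by the authors holds their fold changes for embryonic fibroblasts, of which only the gene symbols were used.

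Counts and TPM were summed over 30281 symbols. Transcripts without a symbol held 0.380% to 0.397% of the counts and were left out of library sizes and tests. Counts were rounded and tested with edgeR 4.0.16 in R 4.3.3 (filterByExpr, TMM, glmQLFit, treatment and line as terms, 1 residual degree of freedom, prior degrees of freedom 9.06, Benjamini-Hochberg adjustment, threshold 0.05). The treatment is the pairing factor, since each treatment has 1 library of each line. SE is the fitted log2 fold change divided by the root of F. On simulated counts for 12952 genes, 98 of 100 genes changed 2-fold and 100 of 100 changed 4-fold were recovered with 12 false calls. Without the treatment term, 0 of 100 and 0 of 100 were recovered. The simulation gave both lines the same treatment effect, used a spread close to that fitted here, and changed no genes with few counts. It therefore does not measure the spread between separate cultures, treatment effects that differ between the lines, or calls from few counts. Positions are from the GRCm38 annotation.

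Members and gene lists were chosen with earlier results of these data known. Genes named over all genes were the 15 largest and 15 smallest called differences with at least 10 TPM in both libraries of the higher line, leaving out predicted genes and pseudogenes, and in each list up to 4 called members a direction. Other genes were named after their values were seen. Alternatives were DESeq2 1.42.0, limma 3.58.1 on log2(TPM + 1) and other pseudocounts, scalings, filters, transcripts in place of genes and leaving out each library. The embryonic fibroblast libraries were not used.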

Additional observations from a re-analysis of the deposited data

How the results depend on the processing

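The numbers of genes called depended on the test. Directions were compared across settings for the named genes. In the order higher, lower, at least 2-fold higher and at least 2-fold lower (709, 430, 358 and 106 as reported), DESeq2 called 407, 223, 210 and 62. Genes with at least 10 TPM in both libraries of a line gave 319, 177, 93 and 14 of 8304 tested. Limma on log2(TPM + 1) gave 398, 178, 190 and 49, with 0.1 added 418, 191, 244 and 63, and with 5 added 424, 206, 68 and 15. Without a filter on low counts 741 genes were called lower. Tested against a 2-fold change itself, 75 were higher and 28 lower. Without the genes of chromosomes 5 and 7 beyond 100 Mb, an alternative chosen after the data were seen, 274 lower calls were left. Single transcripts in place of genes gave 0, 0, 0 and 0 in edgeR, with 2413 of 32860 at an unadjusted p under 0.05. Other scalings moved the median of all genes by at most 0.0225. DESeq2 kept 626 of the calls and the RLE scaling 963.

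The pairing of the lines by treatment carries the test. The fit without this block called 0 genes in each of the 4 classes, and 702 genes had an unadjusted p under 0.05. Leaving out 1 library leaves a fit without the block as well, in which line and treatment are partly mixed. The calls then ranged from 0 to 87 (higher), 0 to 13 (lower), 0 to 87 (2-fold higher) and 0 to 13 (2-fold lower). Some genes that respond to rapamycin changed sign among these fits, in which the fitted differences ranged from -0.16 to 1.43 for *Vcam1*, -0.28 to 1.15 for *Trpm6*, -0.068 to 0.95 for *Pkhd1*, -1.31 to 0.32 for *Krt80*, -0.86 to 0.041 for *Msln*, -0.58 to 1.47 for *Synpo*, -0.059 to 1.30 for *Id1*, -1.85 to 0.16 for *Ltbp1*, -0.085 to 1.40 for *Notch2*, -0.10 to 1.30 for *Ccnd2*, -0.15 to 2.18 for *Ddit4*, -2.37 to 1.13 for *Psph*, -0.25 to 2.16 for *Car9* and -0.33 to 1.95 for *Pfkl*. *Notch1*, called higher from counts, had -0.46, -0.47 and -0.43 in limma on TPM with 1, 0.1 and 5 added. The cause was not tested.

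The rule for genes with reads in one line and at most 3 counts in the other was met by 22 (TJ) and 17 (MKOC) genes at 1 TPM, by 4 and 3 with up to 10 counts in the other line, and by 0 in TJ with short transcripts left out. It limits counts, not TPM, in the other line. With 1 library for each line and treatment, the depth limits genes with few counts, and the spread between separate cultures is unknown.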

Other observations

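Beyond the genes described above, others differed at least 10-fold, mostly at low levels in TJ. They were named after their values were seen, and counts are given first for MKOC without and with rapamycin and then for TJ without and with rapamycin. In all, 22 genes were called at least 10-fold higher in TJ and 5 lower. *Ltf*, the iron-binding protein lactoferrin, had 5, 6, 85 and 439 counts (adjusted p = 5.75e-05, edgeR), and *Pigr*, the receptor that carries polymeric immunoglobulin across epithelia, had 2, 6, 27 and 94 (adjusted p = 0.0011). Both were near the background in MKOC and higher with rapamycin in TJ. The chemerin-binding receptor *Ccrl2* had 13, 8, 53 and 212 counts and *Naip1*, an inflammasome sensor of bacterial proteins, 4, 6, 37 and 89.

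*Slc17a3*, which lies beside *Slc17a1* in the genome and is likewise a urate transporter of the proximal tubule, had 1, 0, 11 and 19 counts, the epithelial calcium channel *Trpv6* 4, 1, 31 and 33, and the tissue-nonspecific alkaline phosphatase *Alpl* 2, 5, 22 and 92. *Ostn*, the secreted peptide osteocrin, went down with rapamycin in both lines, with 15, 1, 377 and 23 counts (adjusted p = 7.68e-05).

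Among genes lower in TJ, *Ctsc*, the lysosomal protease that activates serine proteases of leukocytes, had 212, 82, 14 and 12 counts (-3.42, adjusted p = 0.000297), and *Vat1l* had 15, 12, 2 and 0. The predicted gene *Gm7980* (148, 75, 0 and 0 counts) and the pseudogenes *Gm7334* (95, 64, 0 and 0) and *Rps27a-ps2* (20, 17, 0 and 0) had 0 counts in both TJ libraries. The predicted gene *Gm13043* had 0, 0, 16 and 36. Reads of such genes can be shared with close copies, so these values are uncertain.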
